A study of Mus musculus with 2 samples.

Results

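The genes described here are 59 genes of mitosis, measured in PDGFRα+ cells of mouse fat. They were chosen by name for their role in entry into mitosis, the spindle, the kinetochore, chromosome condensation and cytokinesis. The choice was made with earlier results of these data known, so that the counts of lower members may depend on it. Of the 59, 58 had a probe set that the platform annotation assigns to 1 gene, out of 19938 genes with such a probe set; Ccnb1 had none and has no value here. Kif14 and Top2a had 2 probe sets each, of which the one with the higher mean over both arrays was used.

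The cells came from the stromal vascular fraction, the cells left when collagenase has freed the adipocytes, of inguinal white fat, and were sorted with a PE-coupled antibody against PDGFRα, the PDGF receptor carried by stromal fibroblasts, adipocyte precursors among them. The groups were floxed mice, with the Sox9 floxed genotype, and Sox9 PreASKO mice. All were females aged 6 weeks, and all had received doxycycline at postnatal day 1. Each group was 1 array, which the series' design text gives as pooled from n = 3. The promoter that drives the deletion in PreASKO mice and the number of separate sorts are not given in the sources used here. The sort names no marker that removes other cells. Sox9 itself had levels of 5.25 (floxed) and 4.97 (PreASKO), so that this gene did not set the labels apart by 1.5-fold, the limit the series names. Where its probes bind relative to the floxed exons is unknown here.

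With 1 array per group there is no replicate error behind any value, and no test was made. Values are the deposited levels, taken as log2 from their range. Differences are PreASKO minus floxed, so that -0.58 is the limit of 1.5-fold lower and -1 is 2-fold lower. As a measure of background, 1027 olfactory receptor genes were taken as silent in these cells. Of these, 595 were lower and 346 higher in PreASKO, with a median difference of -0.08. At 1.5-fold, 60 of the olfactory receptor genes were lower and 12 higher. The 95th percentile of their levels was 4.64 (floxed) and 4.47 (PreASKO), and the higher value is called the background mark for both. A fold against a level below the mark is given as "at least", computed against the mark.

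In a dividing cell, cyclin B with CDK1 starts mitosis, condensin compacts the chromosomes, and the kinetochore couples each chromosome to spindle microtubules. The spindle checkpoint holds back the anaphase-promoting complex and its activator CDC20 until all chromosomes are attached, and the central spindle then directs the cut between the daughter cells. Most genes of this machinery are transcribed in G2 and mitosis and are low in resting cells. A DNA element named the cell cycle homology region (CHR), bound by the MuvB complexes with B-MYB and FOXM1 or with repressive partners, and CCAAT boxes, bound by NF-Y, are known from their promoters. In fat, resting stromal precursors are the source of new adipocytes, and most of them are not in cycle in the adult.

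The promoters of the members are shown first. Sequence was not used to choose the members, but the motifs are known from promoters of genes with these roles. How often the motifs occur is thus a description and no independent evidence. Of the 59 members, 49 had an entry in the RefSeq promoter table (build GRCm38.p6), with 54 windows of 300 bases, 250 before to 50 after each annotated start. The CHR was searched as TTTGAA and the CCAAT box as CCAAT, on both strands. In the stretches below, read 5′ to 3′ on the gene's strand, capitals mark TTTGAA, its variant TTCGAA and CCAAT or their reverse complements. Only bases before the annotated start are printed. Mki67, Top2a and Ccnb2 are shown because their levels differed over 2-fold, and Cdc20 because it holds the same motifs while its level differed by -0.19. Mki67 lies at chr7:135716462-135716577, Top2a at chr11:99024197-99024426, Ccnb2 at chr9:70421561-70421731 and Cdc20 at chr4:118437344-118437406, all on the minus strand.
Mki67: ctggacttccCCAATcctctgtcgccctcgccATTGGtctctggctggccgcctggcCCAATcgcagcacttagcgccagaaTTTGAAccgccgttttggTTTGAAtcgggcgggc
Top2a: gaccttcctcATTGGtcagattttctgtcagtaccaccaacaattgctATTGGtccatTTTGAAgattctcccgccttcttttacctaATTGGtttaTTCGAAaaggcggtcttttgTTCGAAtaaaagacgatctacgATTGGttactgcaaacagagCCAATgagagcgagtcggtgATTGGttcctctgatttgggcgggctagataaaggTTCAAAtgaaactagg
Ccnb2: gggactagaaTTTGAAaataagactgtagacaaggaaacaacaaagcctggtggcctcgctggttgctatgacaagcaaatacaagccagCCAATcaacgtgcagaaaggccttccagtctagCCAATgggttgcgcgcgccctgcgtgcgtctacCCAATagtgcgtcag
Cdc20: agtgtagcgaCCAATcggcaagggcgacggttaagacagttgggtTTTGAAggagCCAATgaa
The 3 CCAAT boxes of Ccnb2 start 33 bases apart from each other, at -87, -54 and -21 from the start, and a second TTTGAA of this window begins at base 5 after the start. In Mki67 the TTTGAA copies begin at -116 and -98. The printed Top2a stretch holds 2 copies of TTTGAA, 2 of TTCGAA and 6 boxes of the NF-Y type.

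TTTGAA stood in 39 of the 54 member windows (72.2%), against 17.9% of all 32851 windows and 14.8% of the 19177 windows of genes measured on these arrays. It stood in 36.5% of 96 windows of other mitotic genes, a list described below, and in 19.6% of 46 windows of G1/S and replication genes. Within 50 bases of the start on either side it was in 35 member windows (64.8%), against 4.94% of all windows. CCAAT stood in 37 member windows (68.5%) and in 37.4% of all windows, with 63.5% for the other mitotic genes and 54.3% for the G1/S and replication genes. Both motifs were together in 30 member windows (55.6%) and in 6.95% of all windows, and 1 pair of their sites overlapped. The variant TTCGAA was in 4 member windows (7.41%) and in 1.56% of all. The E2F-type sequences TTTCCCGC and TTTGGCGC were in 2 (3.70%) and 3 (5.56%) member windows, against 1.07% and 0.514% of all. Windows of one gene overlap, 4 members had several, and a match of letters is not a measured binding site.

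**Figure D1:**
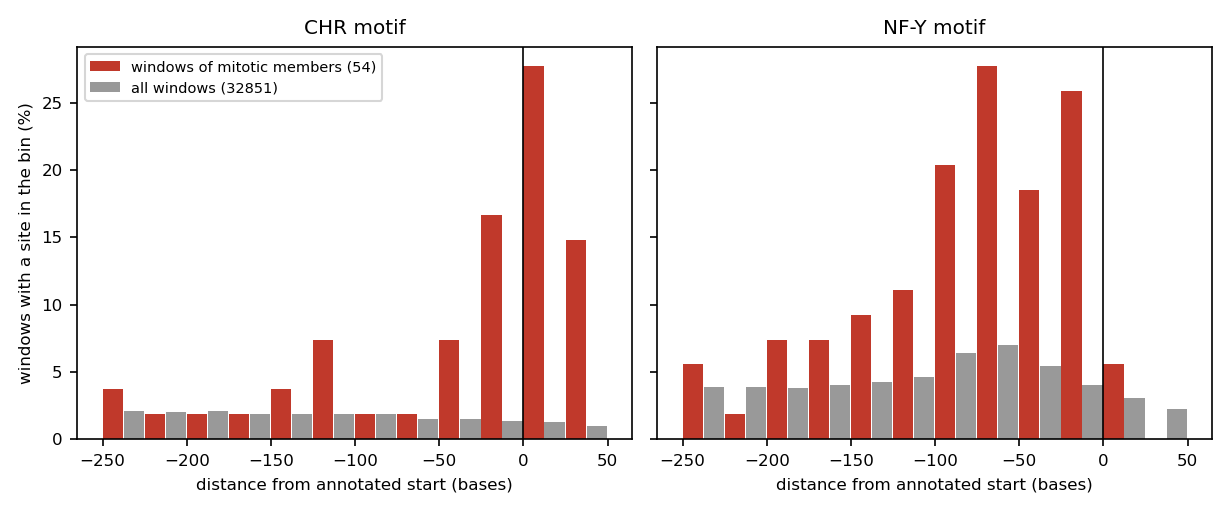
Share of promoter windows (y axis, %) with a site of the CHR motif (left) or the NF-Y motif, the CCAAT box (right), in each bin of 25 bases by distance from the annotated start (x axis, bases). Red bars are the 54 windows of mitotic members and grey bars all 32851 windows; the CHR motif peaks in the bin just after the start (27.8% against 1.31%), the CCAAT box between 100 bases before the start and the start.

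Nearly all members were lower in the PreASKO array. Of 58, 56 were lower and 2 higher, where 48.0% of all genes were lower, and 31 were at least 1.5-fold lower, against 1.98% of all genes. None was 1.5-fold higher, against 1.66% of all genes. The median difference was -0.60, the quartiles were -0.86 and -0.40, and the median over all genes was 0. At 2-fold, 11 members were lower by the deposited values, against 0.145% of all genes, but 6 of these 11 lay below the background mark in PreASKO. With values below the mark raised to it, 6 members were 2-fold lower, against 0.0552% of all genes: Ccna2, Ccnb2, Mki67, Top2a, Anln and Prc1. These 6 were 54.5% of the 11 genes lower by this measure and 10.3% of the members. In these pooled cells fewer dividing cells and less of each RNA per cell cannot be told apart.

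The members' levels were modest in both arrays. In the floxed array 48 of 58 members reached the background mark, in the PreASKO array 27, while over all genes the numbers were 11430 and 11385. The mark is the floxed array's percentile, which favours fewer genes above it in PreASKO. It was reached by 52 olfactory receptor genes in floxed and 41 in PreASKO. Aspm, Cdca2 and Racgap1 lay below the mark in PreASKO but above that array's own percentile of 4.47. Above the 99th percentile of these silent genes (5.43 and 5.33) there were 25 members in the floxed and 12 in the PreASKO array. The 27 members above the mark in both arrays had a median difference of -0.64, and 16 of them were 1.5-fold lower. Over all 19938 genes, 415 were above the mark in the floxed array only and 370 in the PreASKO array only. The 21 members above it in the floxed array only had a median of -0.69, with 13 past the limit, but a gene that crosses the mark had to differ. The 10 below it in both had a median of -0.33, with Kif14 and Ttk past the limit at levels that cannot be told from silent genes. With all values below the mark raised to it, 22 members were 1.5-fold lower, against 0.517% of all genes, and they were 21.4% of the 103 genes lower by this measure. The median was then -0.42.

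Sorted by the mean over both arrays, 9 of 12 members more than 1 above the mark were 1.5-fold lower (75.0%), against 0.679% of all genes in that range. Between the mark and 1 above it 16 of 28 were lower (57.1%), against 2.22% of genes, and below the mark 6 of 18 (33.3%), against 3.11%.

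**Figure D2:**
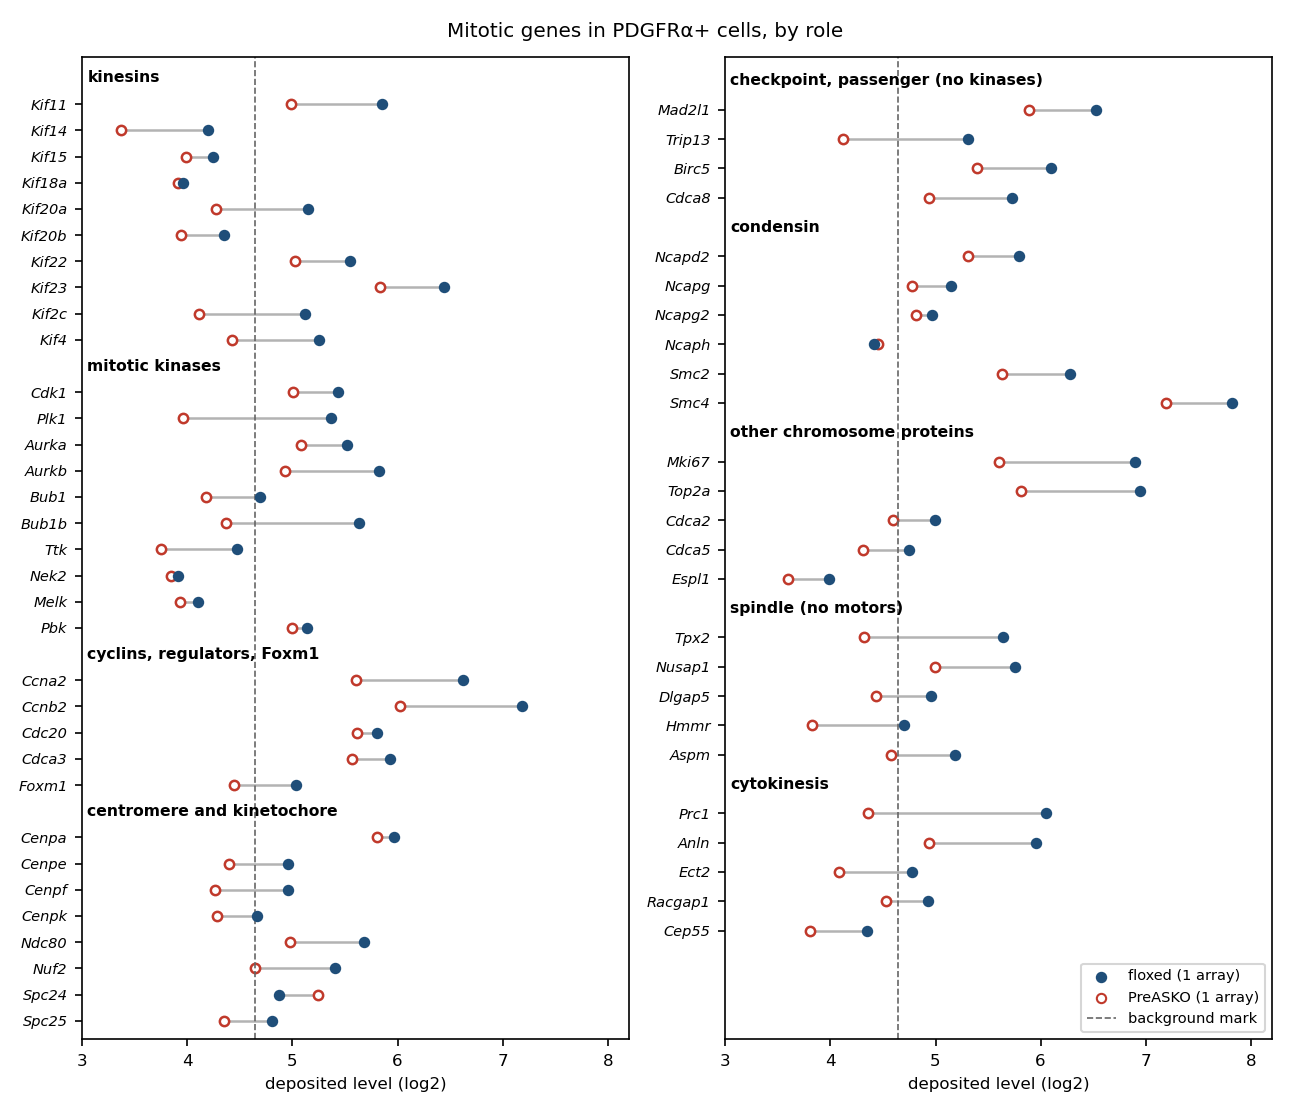
Deposited level (x axis, log2) of each of the 58 measured members, grouped by role, in the floxed array (filled blue) and the PreASKO array (open red), with the background mark of 4.64 dashed. The open points lie left of the filled ones for all but Spc24 and Ncaph, and 21 members cross from right of the dashed line to left of it. Over all 19938 genes, 415 cross in this direction and 370 in the other.

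All 5 measured genes of the cyclins, their regulators and the transcription factor FOXM1 were lower, with a median of -0.59. Of these, 3 were past the limit, or 2 with values below the mark raised to it. The counts by role stand against 1.98% of all genes 1.5-fold lower, or 0.517% with values so raised. Ccna2, the cyclin of S phase and G2, was at 6.62 in floxed and 5.60 in PreASKO and 2.02-fold lower. Ccnb2, a mitotic cyclin, was at 7.18 and 6.02 and 2.23-fold lower. Foxm1, the transcription factor that drives G2 and mitotic genes, was at 5.04 and 4.45, a difference of -0.59 or at least 1.32-fold. Cdca3, which helps to remove the mitotic inhibitor WEE1, differed by -0.36 (5.92 and 5.56). Cdc20, which activates the anaphase-promoting complex, was at 5.81 and 5.61, a difference of -0.19. Within this group the cyclins thus differed more than Cdc20.

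Of 10 mitotic kinases all were lower, 4 by at least 1.5-fold (3 with values raised to the mark), with a median of -0.48. Plk1, which acts in mitotic entry, centrosome maturation and cytokinesis, was at 5.37 and 3.96, at least 1.66-fold lower. Bub1b, which encodes the checkpoint protein BUBR1, was at 5.63 and 4.37, at least 1.99-fold lower. Aurkb, the kinase of the chromosomal passenger complex, was at 5.82 and 4.93 and 1.86-fold lower. Ttk, the checkpoint kinase MPS1, passed the limit at levels below the mark in both arrays (4.47 and 3.75). Bub1, its partner at the kinetochore, was at 4.69 and 4.17, a difference of -0.52 or at least 1.03-fold. Cdk1, the kinase that cyclin B activates, and Aurka, the centrosomal Aurora kinase, both differed by -0.44 (5.44 and 5.00, and 5.52 and 5.08). Pbk, a mitotic kinase gene, differed by -0.15 (5.14 and 4.99). Melk (-0.17) and the centrosome kinase gene Nek2 (-0.07) were below the mark in both arrays. With values below the mark raised to it, Bub1b differed by -0.99, Aurkb by -0.89 and Plk1 by -0.73.

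The proteins that work with these kinases in the checkpoint and the passenger complex were all past the limit, 4 of 4, with a median of -0.75. With values raised to the mark this count was also 4. Mad2l1, the checkpoint protein MAD2, was at 6.53 and 5.89 and 1.55-fold lower. Trip13, an ATPase that remodels MAD2, was at 5.31 and 4.12, at least 1.59-fold lower. Birc5, which encodes survivin, was at 6.10 and 5.39 and 1.63-fold lower, and Cdca8, which encodes borealin, was at 5.72 and 4.94 and 1.72-fold lower. In the passenger complex Aurkb, Birc5 and Cdca8 thus differed by -0.89, -0.70 and -0.79. The scaffold subunit Incenp, outside the members and picked out after its value was seen, was at 5.80 and 5.62, a difference of -0.18.

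Among 8 centromere and kinetochore genes 7 were lower, 3 past the limit (2 with values raised to the mark), with a median of -0.51. The NDC80 complex, the microtubule-binding rod of the kinetochore, did not differ alike in its 4 genes. Ndc80 (5.69 and 4.98) and Nuf2 (5.41 and 4.65), the arm that meets the microtubule, were 1.63-fold and 1.69-fold lower. Spc25, of the arm that faces the chromosome, was at 4.80 and 4.35, a difference of -0.45 or at least 1.12-fold. Its partner Spc24 was at 4.87 and 5.24, a difference of 0.37, the only member above the mark that was higher in PreASKO. Cenpf, a large kinetochore and nuclear matrix protein, was at 4.96 and 4.26, at least 1.24-fold lower. Cenpe, a kinetochore motor that carries chromosomes to the metaphase plate, differed by -0.56 (4.96 and 4.40, at least 1.25-fold). Cenpk, of the constitutive centromere network, differed by -0.38 and lay near the mark (4.66 and 4.28, at least 1.01-fold). Cenpa, the histone H3 variant that marks centromeres, was at 5.96 and 5.81, a difference of -0.16.

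Kinesins, motors that slide or shorten microtubules, had a median of -0.72. All 10 were lower, 6 past the limit, or 3 with values raised to the mark. Kif11, the Eg5 motor that pushes the spindle poles apart, was at 5.85 and 4.98 and 1.82-fold lower. Kif23, the motor subunit of centralspindlin in the midzone, was at 6.44 and 5.83 and 1.52-fold lower. Kif2c, the depolymerase MCAK, was at 5.12 and 4.11, at least 1.39-fold lower. Kif4, a chromosome-bound motor that also partners PRC1, was at 5.26 and 4.42, at least 1.53-fold lower. Kif20a, a midzone motor, was at 5.15 and 4.27, at least 1.42-fold lower. The chromosome arm motor gene Kif22 differed by -0.53 (5.55 and 5.02). The 4 others were below the mark in both arrays: Kif14 with -0.83, Kif20b with -0.41, Kif15 with -0.26 and Kif18a with -0.05. The second probe set of Kif14 differed by 0.26 at levels of 2.45 and 2.71, so that the direction of Kif14 is not settled.

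Spindle proteins without a motor were lower in 5 of 5 cases, 4 past the limit (2 with values raised to the mark), with a median of -0.76. Tpx2, which nucleates microtubules around chromosomes and activates Aurora A, was at 5.64 and 4.32, at least 1.995-fold lower. Its partner kinase gene Aurka differed by -0.44, as given above. Nusap1, a microtubule bundling protein, was at 5.75 and 4.99 and 1.70-fold lower. Aspm, a protein of spindle poles, was at 5.18 and 4.58, at least 1.45-fold lower, and Hmmr, a spindle protein that binds hyaluronan outside cells, lay near the mark in floxed (4.70 and 3.83). Dlgap5, a stabiliser of kinetochore fibres, differed by -0.53 (4.96 and 4.43, at least 1.25-fold).

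Condensin genes were lower in 5 of 6 cases, 2 past the limit and none crossing the mark, with a median of -0.42. Smc2 (6.28 and 5.63) and Smc4 (7.82 and 7.19), the ATPase core shared by both condensin complexes, were 1.57-fold and 1.55-fold lower. Of the condensin I subunits, Ncapd2 differed by -0.48 (5.79 and 5.31) and Ncapg by -0.36 (5.14 and 4.78), while Ncaph was below the mark in both arrays (4.42 and 4.45). The condensin II subunit Ncapg2 differed by -0.15 (4.96 and 4.81). The other condensin II subunits, Ncapd3 and Ncaph2, no members and chosen after their values were seen, differed by -0.12 and -0.09.

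Other chromosome proteins were lower in 5 of 5 cases, 2 past the limit (also 2 with values raised to the mark), with a median of -0.44. Mki67, the Ki-67 protein that coats mitotic chromosomes and is used as a proliferation marker, was at 6.90 and 5.60 and 2.47-fold lower. Top2a, the topoisomerase that untangles sister chromatids, was at 6.95 and 5.81 and 2.20-fold lower. A second Top2a probe set lay below the mark in both arrays (3.22 and 3.17). Cdca5, which encodes the cohesion protector sororin, differed by -0.44 (4.75 and 4.31, at least 1.07-fold). Cdca2, a phosphatase subunit on chromosomes, differed by -0.40 (4.99 and 4.59, at least 1.28-fold). Espl1, which encodes separase, the protease that opens cohesin, was below the mark in both arrays (3.99 and 3.60).

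Cytokinesis genes held the most negative difference of all members. Prc1, which cross-links the microtubules of the central spindle, was at 6.05 and 4.36, at least 2.66-fold lower. Anln, the actin scaffold anillin of the cleavage furrow, was at 5.96 and 4.94 and 2.03-fold lower. Ect2, the activator of RhoA at the furrow, passed the limit with levels near the mark (4.78 and 4.08, at least 1.10-fold). Racgap1, the partner of Kif23 in centralspindlin, differed by -0.40 (4.93 and 4.53, at least 1.22-fold). Cep55, an organiser of the last cut, was below the mark in both (4.35 and 3.81). All 5 were lower, 3 past the limit (2 with values raised to the mark), with a median of -0.70.

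**Figure D3:**
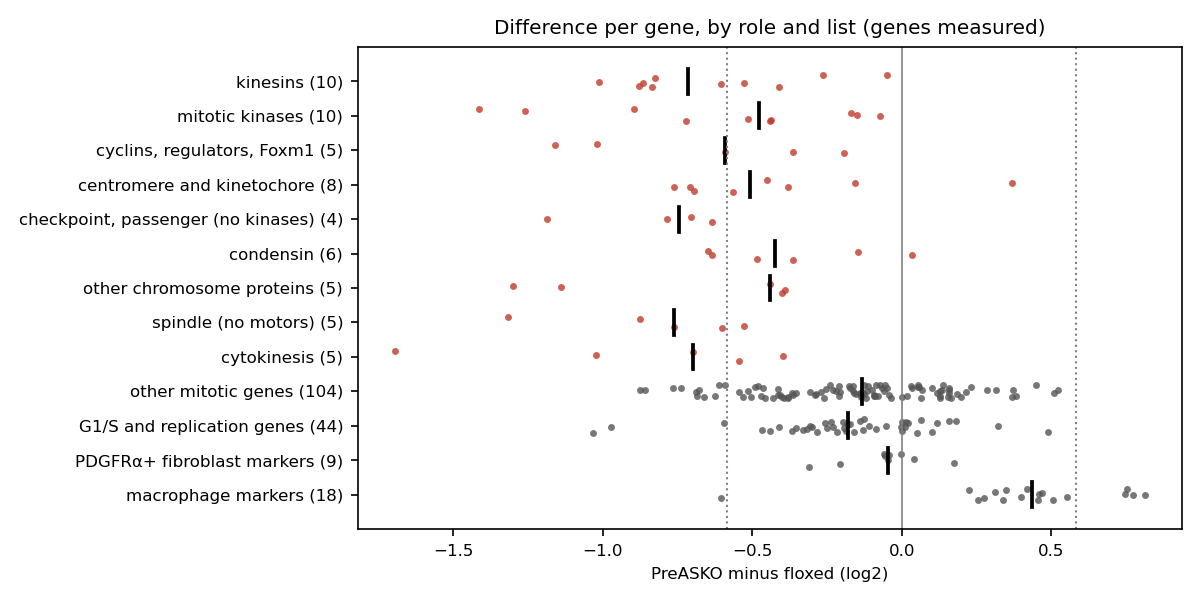
PreASKO minus floxed (x axis, log2) for each gene, by role of the members (red) and for 4 comparison lists (grey), with numbers of genes in brackets, medians as black bars and 1.5-fold as dotted lines. The medians of the 9 roles lie between -0.76 and -0.42, those of the other mitotic genes and of the G1/S and replication genes at -0.13 and -0.18.

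Measured mitotic genes outside the members differed less than the members. Members and lists were chosen with earlier results of these data known, so that this contrast is a description and no independent comparison. A list of other mitotic genes, from further centromere proteins, cohesin and the anaphase-promoting complex to centriole proteins and MuvB subunits, had 104 measured genes, of which 71 were lower. Over all genes 48.0% were lower. The 1.5-fold limit was passed by 11 genes of the list, all of them lower (10.6%), against 1.98% of all genes, and the list's median was -0.13. With values raised to the mark, 4 of the list were 1.5-fold lower, against 0.517% of all genes. The list includes genes used throughout the cycle or outside it, such as those of cohesin. Among genes above the mark in at least 1 array, those lower past the limit included Tacc3, a stabiliser of spindle microtubules (6.12 and 5.26), Cks2, a CDK-binding protein gene (7.16 and 6.39), and Lmnb1, which encodes lamin B1 (7.05 and 6.36). Shcbp1, a midzone protein gene, was at 5.19 and 4.32, at least 1.46-fold lower, so that its place among them is not measured. Ube2c, the ubiquitin-conjugating enzyme of the anaphase-promoting complex, named after its value was seen, was above the mark in both arrays and differed by -0.59 (6.09 and 5.50). The most positive were the MuvB subunit gene Lin37 (0.52) and Mis18a (0.51), a loader of CENP-A, both under the limit. Of the other MuvB genes in the list, chosen after their values were seen, Lin54, whose protein contacts the CHR, differed by -0.24 (6.14 and 5.90) and Lin52 by 0.13 (5.70 and 5.84). Lin9 (-0.21) and Mybl2 (-0.16), which encodes the MuvB partner B-MYB, were below the mark in both arrays.

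Genes of the G1/S transition and DNA replication had a median of -0.18 over 44 measured genes. Of these, 31 were lower, 3 by 1.5-fold (6.82%), against 48.0% and 1.98% of all genes. None was 1.5-fold higher, against 1.66% of all genes. Rrm2, a ribonucleotide reductase subunit, was at 5.63 and 4.60, at least 1.98-fold lower, and Tyms, which makes thymidylate, was at 6.33 and 5.73. The third, Dbf4, was below the mark in both. Uhrf1 (-0.47) and the helicase subunit gene Mcm7 (-0.44) followed, and Pold1 (0.49) and Rfc5 (0.32) were the most positive. Whether these lists differ from the members beyond replicate error could not be tested with 1 array per group.

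**Figure D4:**
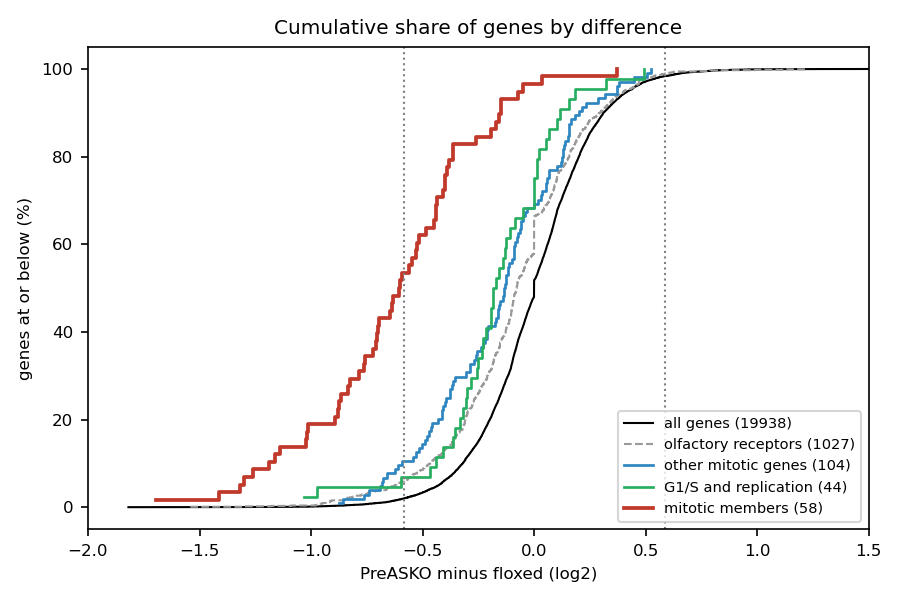
Cumulative share of genes (y axis, %) at or below each difference PreASKO minus floxed (x axis, log2) for all genes, olfactory receptor genes, other mitotic genes, G1/S and replication genes and the 58 mitotic members, with 1.5-fold as dotted lines. At 1.5-fold lower the members' curve has reached 53.4%, that of all genes 1.98% and that of olfactory receptor genes 5.84%.

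Members with and without the promoter motif TTTGAA were both lower. The 36 measured members with TTTGAA in a window had a median difference of -0.63, and 20 of them were 1.5-fold lower, against 1.98% of all genes. The 12 with a window but no TTTGAA, among them Birc5 and Mad2l1, had a median of -0.54, and 5 were 1.5-fold lower. Of these 12, Trip13 and Bub1 held the variant TTCGAA. The 4 members with that variant, Bub1, Bub1b, Top2a and Trip13, had a median of -1.16, with 3 past the limit. Bub1, Bub1b and Trip13 were below the background mark in PreASKO. With values raised to the mark, these genes differed by -0.05, -0.99 and -0.67. None of the 2 members with TTTCCCGC and the 3 with TTTGGCGC passed it. For CCAAT the medians were -0.60 with a site (32 members) and -0.59 without (16 members). These values are a description of the listed windows, which can miss other start sites.

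The cells on both arrays carried the fibroblast markers of a PDGFRα sort and markers of macrophages. All 9 measured fibroblast markers, among them Pdgfra, lay between 9.55 and 12.2 in both, with a median difference of -0.05 and none past the limit. Macrophage markers differed in the other direction from the mitotic genes. All 18 measured were above the mark in both arrays, and 17 were higher in PreASKO, with a median of 0.44. Of these, 4 were 1.5-fold higher, against 1.66% of all genes. The exception, the chemokine receptor gene Cx3cr1, was 1.5-fold lower (6.40 and 5.80). The summed level of the 18, on the linear scale, was 8592 in floxed and 12093 in PreASKO. Mural markers had a median of -0.31 over 9 genes, all between 4.43 and 7.21, and endothelial markers one of -0.13 over 9. In each of these 2 lists 6 genes were lower and 3 higher, with 1 past the limit. These were the mural gene Kcnj8 (5.98 and 5.36) and the endothelial gene Kdr (5.55 and 4.86), both lower in PreASKO. Of 9 lymphocyte, 8 epithelial and 3 erythroid markers, 5, 5 and 3 were below the mark in both arrays. Among those above it, the T cell gene Cd3e was past the limit and higher in PreASKO (4.96 and 5.84, a difference of 0.88). The other lymphocyte markers above it differed by 0.12 (Cd3g), 0.13 (Cd8a) and -0.09 (Cd79b). Of all 9 lymphocyte markers, 5 were higher in PreASKO and 4 lower. The 3 epithelial markers above the mark, all under the limit, differed by 0.38 (Krt8), 0.31 (Krt19) and 0.29 (Cldn3). Of all 8 epithelial markers, 5 were higher in PreASKO and 3 lower. The part of these cell types in the lower mitotic genes was not tested, and which cells of the sort carried the mitotic RNA is not given by these arrays.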

How the data were processed

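RNA of PDGFRα+ cells was measured on 2 arrays, 1 floxed and 1 PreASKO. The authors deposited log2 values for 35556 probe sets made with RMA, per the submitters' processing notes. The version and log base are not given in the sources used here; values run from 1.23 to 13.8, as log2 values do. RMA makes the arrays' distributions alike and understates differences of dim genes. Probe sets naming 1 gene in the supplied platform annotation (21789) were kept, and those with several genes (1621) or none (12146) left out, which gave 19938 genes. Symbols of 21698 probe sets were checked against RefSeq (GRCm38.p6) and none changed. The number of arrays limits the precision, and no test was made.

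Differences, counts past 1.5-fold and medians were computed with Python 3.11.15, pandas 2.3.3, numpy 2.4.6 and statsmodels 0.14.6. The steps were tested on simulated data. The members, the roles, the lists and the alternatives were chosen with earlier results of these data known. All 59 members are accounted for. From the 2 comparison lists the 4 most negative and 2 most positive differences above the mark in at least 1 array are named. Genes said to be picked out later are outside this rule. Alternatives were a level filter, raising values to the mark, the mean over probe sets, centring, loess (span 0.3), quantile normalization and a 2-fold limit. The 2-fold limit with values raised to the mark was added after seeing the data.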

Additional observations from a re-analysis of the deposited data

How the results depend on the processing

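Centring could change no difference, because the median difference over all genes was already 0. RMA had already made the arrays' distributions alike, so that quantile normalization could shift little. Of the 58 members, all kept their difference within 0.1 under loess and quantile normalization. The mean over probe sets could move only Kif14 and Top2a, the 2 members with several probe sets, and it moved both by over 0.1. No member past the limit changed direction under any alternative that was run. Raising values below the background mark to it moved the members' median to -0.416, the other mitotic genes' median to 0 and their count of lower genes from 11 to 4. It moved 26 members by over 0.1, because a level below the mark is replaced by the mark. At the 2-fold limit 11 members, 0 other mitotic genes and 1 gene of the G1/S and replication list were lower. With values also raised to the mark, a setting chosen after seeing the data, the counts were 6, 0 and 0, since Rrm2 and 5 of the 11 members had bounds under 2-fold. The medians of the roles kept their sign under every alternative run, and the widest shift was that of cytokinesis genes, from -0.70 to -0.29 with values raised to the mark. No paired analysis was possible because there is 1 array per group, and none could be left out. The low signal of many members limits what their differences can show.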
